A study of Mus musculus with 4 samples.

Results

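The genes described are 10 inflammatory genes, followed through 2 maps of NR1D1 on chromatin. They are the cytokine gene Il6, the chemokine genes Ccl2, Ccl7, Cxcl1 and Cxcl12, the chemokine receptor gene Cx3cr1, the adhesion genes Vcam1 and Icam1, and the innate sensor genes Tlr4 and Nlrp3. These 10 genes were taken from 21887 protein-coding genes by name, and every deposited peak that overlapped a gene's RefSeq span plus 50 kb on each side was assigned to it. That gave 10 of 8816 peaks in the vasostatin-2 list and 7 of 7377 peaks in the PBS list. The maps are CUT&Tag libraries: a transposase is brought to the protein by its antibody and releases the DNA around it for sequencing. The cells were primary vascular smooth muscle cells cultured from the aortas of WT mice. Treatment lasted 24 h and was either vasostatin-2, which is a fragment of chromogranin A, or phosphate-buffered saline (PBS). Each treatment has 1 NR1D1 library, so there is no replicate error and no treatment effect was tested. Libraries made with IgG were not analysed here, and intervals cover counting error only.

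NR1D1 (REV-ERB alpha) is a nuclear receptor of the circadian clock that represses transcription by recruiting the NCoR-HDAC3 corepressor. It binds the hexamer AGGTCA preceded by A and T bases, and it can also be brought to chromatin by other factors. In macrophages it is known to repress inflammatory genes, among them Il6, Ccl2, Cx3cr1 and Nlrp3, and in human macrophages TLR4. In smooth muscle cells of the vessel wall chemokines draw leukocytes in, and VCAM1 and ICAM1 hold them there. Binding does not measure expression, and no expression was measured here. Of 4 smooth muscle markers, Myh11, Tagln and Cnn1 had a peak within 50 kb in each list and Acta2 had none. Of 4 macrophage markers 1 had a vasostatin-2 peak and 2 had a PBS peak in that window, and of 4 endothelial markers Cdh5 had a vasostatin-2 peak alone and Pecam1 a PBS peak alone. Among all protein-coding genes 50% had a vasostatin-2 peak and 49.2% a PBS peak in the same window.

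Of the 10 genes, Cxcl1 alone had a peak across an end of its span, at its start. The 250 bases before its start are shown because the vasostatin-2 peak covered 181 of them. They lie on the forward strand of chr5:90890995-90891244 (GRCm38.p6, the assembly of mm10; sequence from RefSeq), and capitals mark matches to an NF-kB type motif (GGG and CC with 5 bases of any kind between them) on either strand.
Cxcl1: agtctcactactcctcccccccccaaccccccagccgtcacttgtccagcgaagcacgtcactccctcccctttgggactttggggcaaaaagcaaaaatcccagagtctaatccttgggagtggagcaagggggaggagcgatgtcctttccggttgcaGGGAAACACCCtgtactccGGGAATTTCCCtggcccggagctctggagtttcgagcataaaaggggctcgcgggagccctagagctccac
The capitals hold 2 stretches, and in each a match on the forward strand overlaps one on the reverse strand. The forward matches begin at positions -90 and -71, counted back from the start, and no other searched motif overlaps them. Promoter entries, 250 bases before to 50 after the start, were given for 6 of the 10 genes: Il6, Cxcl1, Cxcl12, Icam1, Nlrp3 and Cx3cr1. The NF-kB type motif occurred in all 6 of these genes, against 50.8% of all 32851 promoter entries. The 6 are counted by gene and the rest by entry, and Nlrp3 has 2 entries, both with this motif. The hexamer AGGTCA occurred in 0 of the 6 genes and in 16.3% of all entries, and the E-box CACGTG in 0 of the 6 and in 7.15%. The AP-1 type letters TGANTCA occurred in Il6 alone and in 7.81% of all entries. Both strands were searched for each motif, and a match is a description of the letters, not a site.

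NR1D1 peaks were found near 8 of these genes, and the summits of most lay over 10 kb from the gene. A vasostatin-2 peak lay in the window of 8 of the 10 genes, and 50% of all protein-coding genes had one in the same window. A PBS peak lay in the window of 4 of the 10, against 49.2% of all protein-coding genes. Cxcl1, Cx3cr1, Icam1 and Nlrp3 had a peak in both lists (36.4% of all genes), and Il6 and Tlr4 had a peak in neither (37.3%). The 4 genes Ccl2, Ccl7, Cxcl12 and Vcam1 had one in the vasostatin-2 list alone, a class that held 13.6% of all genes. In the PBS list alone stood 0 of the 10 and 12.8% of all genes. Among the 13362 protein-coding genes no longer than the longest of the 10 (25387 bp), 45.6% had a vasostatin-2 peak, 46.3% a PBS peak, 11.4% a vasostatin-2 peak alone and 12% a PBS peak alone. Ccl2 and Ccl7 are 8260 bp apart and share 1 peak, so these 4 genes rest on 3 peaks. Those peaks had 5 to 7 fragments at the summit: with at least 8 fragments required, 1 gene (Cxcl1) had a peak in the vasostatin-2 list alone, and with vasostatin-2 fragments divided by the depth factor of 1.32 none had. The shares of all genes under these stricter rules are not given here.

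**Figure D1:**
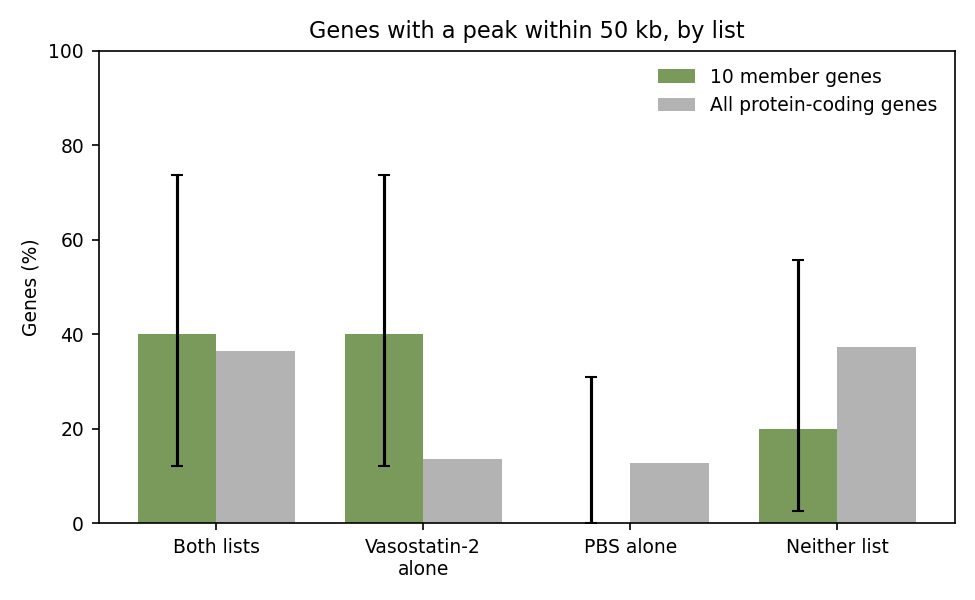
Share of genes with a peak within 50 kb, in %, by list: the 10 genes in green with 95% Clopper-Pearson intervals, and all 21887 protein-coding genes in grey. The intervals treat the 10 genes as independent, though these were picked by name and Ccl2 and Ccl7 share a peak. Enrichment was not tested. The class with peaks in both lists holds 40% of the 10 genes and 36.4% of all genes, and the class with vasostatin-2 peaks alone holds 40% and 13.6%.

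Per length, the windows of the 10 genes, 1.03 Mb in all, held 9.71 vasostatin-2 peaks per Mb (95% Poisson interval 4.66 to 17.9) and 6.80 PBS peaks per Mb (2.73 to 14.001). The windows of all protein-coding genes together held 4.20 vasostatin-2 and 3.78 PBS peaks per Mb. The counts behind these densities depended on the rule: with lists of equal length the windows held 7 vasostatin-2 and 7 PBS peaks, and with at least 8 fragments 5 vasostatin-2 and 6 PBS peaks. The densities for all genes under these rules are not given here. A vasostatin-2 peak overlapped the span of Cxcl1 and that of Vcam1, 2 of the 10 genes, where 17.4% of all genes had one. A PBS peak overlapped the span of 0 of the 10, where 18.7% of all genes had one. Within 3 kb of a gene end there was a vasostatin-2 peak at Ccl2 and Cxcl1 (13.8% of all genes) and a PBS peak at Icam1 (18.1%). Of the 10 vasostatin-2 peaks 7, and of the 7 PBS peaks 6, had their summit over 10 kb from the gene.

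**Figure D2:**
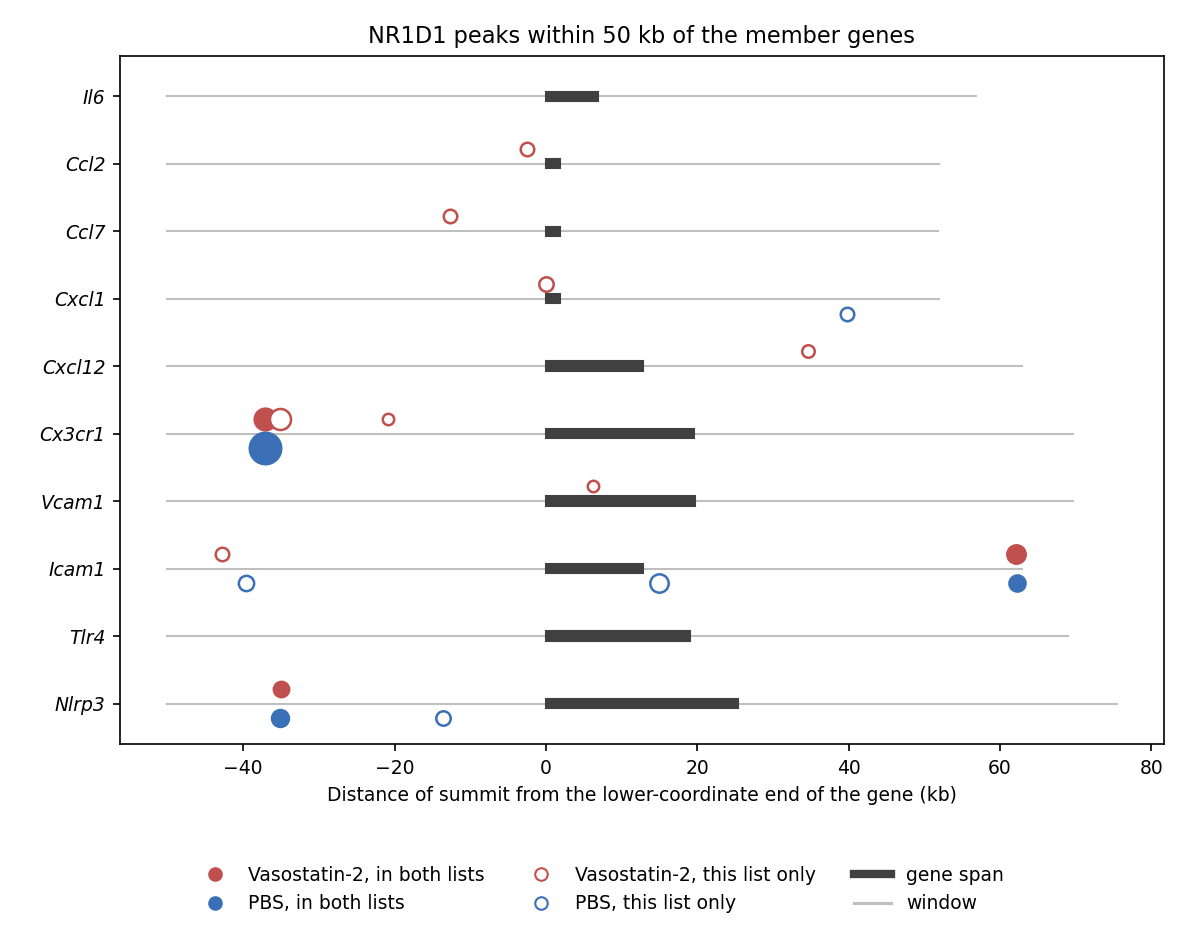
Position of each peak summit in kb from the lower-coordinate end of the gene (dark bar), with the window as a grey line, vasostatin-2 peaks above and PBS peaks below it. Circle area follows the number of summit fragments, filled circles are peaks in both lists, and most circles lie outside the dark bars.

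Il6, which encodes a cytokine of the acute phase response, had no peak in its window. Its nearest vasostatin-2 peak was 424697 bp away, and its nearest PBS peak 124155 bp away with 4 fragments, the smallest number in either list. Ccl2 encodes the main chemoattractant of monocytes, and Ccl7 a chemokine of the same family. Their common vasostatin-2 peak lay between genes on chromosome 11, 82033022 to 82033294, with its summit 2497 bp from the lower end of Ccl2 and 12632 bp from Ccl7. It had 3.99-fold enrichment, -log10 p of 4.98, -log10 q of 1.86 and 7 fragments (95% Poisson interval 2.81 to 14.4). By fold it ranked at the 13.6 percentile of its list, so it was among the weaker peaks called. The nearest PBS peak to Ccl2 was 101901 bp away.

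Cxcl1 encodes a chemoattractant of neutrophils, and its window held a peak of each list at different places. The vasostatin-2 peak on chromosome 5, 90891064 to 90891388, had its summit 41 bp inside the gene, 5.04-fold enrichment, -log10 p of 6.81, -log10 q of 3.20 and 8 fragments (3.45 to 15.8). This is the peak over the sequence printed above, and it ranked at the 47.8 percentile of its list by fold. The PBS peak lay 37875 bp past the gene, on chromosome 5, 90930996 to 90931217, with 6.11-fold enrichment, -log10 p of 8.79, -log10 q of 4.98 and 7 fragments (2.81 to 14.4). It covered the start of Mthfd2l, which encodes a mitochondrial enzyme of folate metabolism. Fold and -log10 p are set against the local background, which was 0.785 fragments at the vasostatin-2 peak and 0.31 at the PBS peak. Fold is not the plain ratio of these numbers, because a constant is added to fragments and background first. A further vasostatin-2 peak lay just outside the window, 50949 bp from Cxcl1, with 5.29-fold enrichment and 7 fragments.

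Cxcl12 encodes a chemokine that holds and recruits progenitor cells and leukocytes. Its vasostatin-2 peak lay between genes on chromosome 6, 117202972 to 117203180, 21604 bp past the gene, with 4.81-fold enrichment, -log10 p of 6.26, -log10 q of 2.81 and 6 fragments (2.202 to 13.1). The nearest PBS peak was 511530 bp away.

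Among the windows of the 10 genes, that of Cx3cr1 held the peak with the most fragments in each list. Cx3cr1 encodes the receptor of fractalkine on monocytes and macrophages. A peak found in both lists lay on chromosome 9, at 120011346 to 120011789 in the vasostatin-2 list and 120011311 to 120011724 in the PBS list, with summits 3 bp apart. It had 6.53-fold enrichment, -log10 p of 12.5 and -log10 q of 8.12 in the vasostatin-2 list, against 10.8-fold, 31.3 and 26.2 in the PBS list. Its summit held 18 fragments (10.7 to 28.4) in the vasostatin-2 library and 38 (26.9 to 52.2) in the PBS library. By fold it stood at the 81.6 percentile of the vasostatin-2 list and the 97.3 percentile of the PBS list. The site is 36894 bp from the end of Cx3cr1 in the vasostatin-2 list and 36959 bp in the PBS list, and its summit lies inside the long noncoding RNA gene Gm33800. A second vasostatin-2 peak stood about as high by fragments but was not in the PBS list. It lay on chromosome 9, 120013421 to 120013667, 35016 bp from Cx3cr1 and close to the peak found in both lists. This second peak had 17 fragments (9.90 to 27.2), 5.82-fold enrichment and -log10 q of 6.65. Its summit was 176 bp from an end of Xirp1, which encodes an actin-binding protein of striated muscle. A weak vasostatin-2 peak with 5 fragments, 3.60-fold enrichment and -log10 q of 1.31 lay 20741 bp from Cx3cr1.

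**Figure D3:**
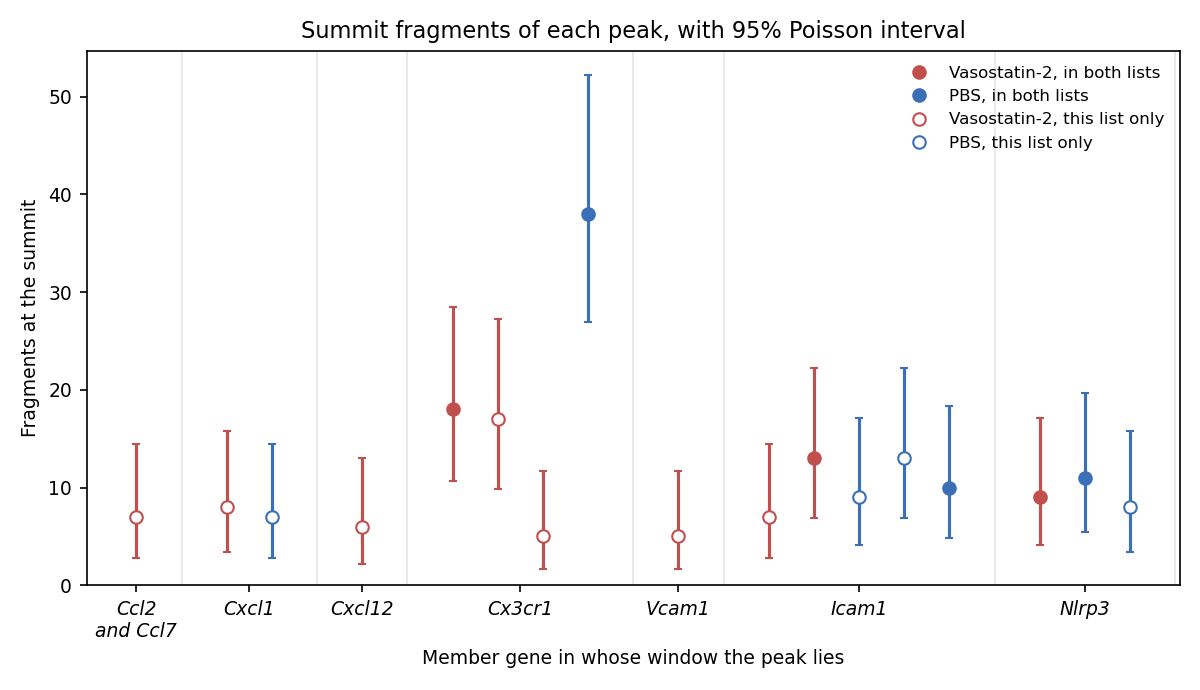
Fragments at the summit of each peak with 95% Poisson intervals, grouped by the gene in whose window it lies, vasostatin-2 peaks in red left of PBS peaks in blue. Filled points are peaks in both lists; the PBS peak near Cx3cr1 with 38 fragments stands above all others, which have 5 to 18.

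The adhesion genes differed in where their peaks lay. Vcam1, which encodes the ligand of integrin VLA-4 on monocytes and lymphocytes, had 1 vasostatin-2 peak inside the gene on chromosome 3, 116116195 to 116116443. It had 4.34-fold enrichment, -log10 p of 5.50, -log10 q of 2.19 and 5 fragments (1.62 to 11.7), the lowest number among these peaks, which a peak near Cx3cr1 also had. The nearest PBS peak was 678272 bp away. Icam1, which encodes a ligand of leukocyte beta-2 integrins, had 2 vasostatin-2 and 3 PBS peaks in its gene-dense window on chromosome 9. The PBS peak nearest to it, 21030837 to 21031278, lay 2023 bp past the gene, between the related adhesion genes Icam4 and Icam5, with its summit 277 bp from Icam4. It had 5.12-fold enrichment, -log10 p of 8.30, -log10 q of 4.56 and 13 fragments (6.92 to 22.2), and no vasostatin-2 peak overlapped it.

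A peak of both lists lay at the far edge of the Icam1 window, inside Raver1, which encodes an RNA-binding protein. It was 49164 bp from Icam1 in the vasostatin-2 list and 49152 bp in the PBS list, just inside the limit of 50 kb. It had 6.77-fold enrichment, -log10 p of 11.0, -log10 q of 6.72 and 13 fragments in the vasostatin-2 list, against 5.73-fold, 8.36, 4.62 and 10 fragments in the PBS list. On the other side, inside S1pr2, a receptor gene of sphingosine-1-phosphate, each list had a weak peak at a different place. The vasostatin-2 peak there had 7 fragments and 3.60-fold enrichment, and the PBS peak 9 fragments and 4.07-fold.

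Tlr4, which encodes the receptor of bacterial lipopolysaccharide, stood far from any peak. The nearest vasostatin-2 peak was 1944703 bp away and the nearest PBS peak 2557322 bp. Nlrp3 encodes the sensor of the inflammasome that activates caspase-1. Its window held a peak of both lists on chromosome 11, at 59506371 to 59506686 in the vasostatin-2 list and 59506281 to 59506801 in the PBS list. It is 34883 bp from Nlrp3 in the vasostatin-2 list and 34768 bp in the PBS list. That peak covered the start of Zkscan17, a zinc finger gene. It had 5.44-fold enrichment, -log10 p of 7.65, -log10 q of 3.91 and 9 fragments in the vasostatin-2 list, against 6.58-fold, 10.03, 6.06 and 11 fragments in the PBS list. A PBS peak of 8 fragments, 4.99-fold enrichment and -log10 q of 3.25 lay nearer, 13417 bp before the gene, and had no counterpart in the vasostatin-2 list.

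The 3 peaks found in both lists all lay at least 34768 bp from Cx3cr1, Icam1 or Nlrp3. They are 3 of the 10 vasostatin-2 peaks and 3 of the 7 PBS peaks, where 30% of the whole vasostatin-2 list and 35.6% of the whole PBS list overlapped the other list. Per unit of depth, the ratio of summit fragments, vasostatin-2 over PBS, was 0.359 (95% exact interval 0.193 to 0.645) at the Cx3cr1 site. It was 0.621 (0.227 to 1.65) at the Nlrp3 site and 0.986 (0.399 to 2.51) at the Icam1 site. These intervals cover counting error alone and test no treatment effect. Over all 2651 overlapping pairs of the lists the median ratio was 0.650, with quartiles of 0.491 and 0.867. A ratio of 1 is therefore not the typical value between these lists. A lower ratio than that of the Cx3cr1 site was found at 5.92% of all pairs. The same share was 45.7% for the Nlrp3 site and 83.4% for the Icam1 site. The ratios compare 1 library with another and rest on the depth factor of 1.32.

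A peak in 1 list only is not shown to be absent from the other library. Of the 7 vasostatin-2 peaks without a PBS counterpart 6 had 5 to 8 fragments. At the depth of the PBS library the 5 fragments of the Vcam1 peak would be 3.79, under the 4 fragments of the smallest listed peak, and 1 further peak, near Cx3cr1, would be as low. The other 5 would have up to 12.9 fragments at that depth, the highest being the peak near Xirp1. Peak values also depend on the local background, so this split does not say which peaks could have been called at that depth. Of the vasostatin-2 peaks with 4 to 8 fragments 0 of 6 in these windows had a PBS counterpart, and 15.7% of such peaks in the whole list. With 9 or more fragments 3 of 4 had one, against 58% in the whole list. In the PBS list the counts were 0 of 2 (17% in the whole list) and 3 of 5 (59.6%).

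**Figure D4:**
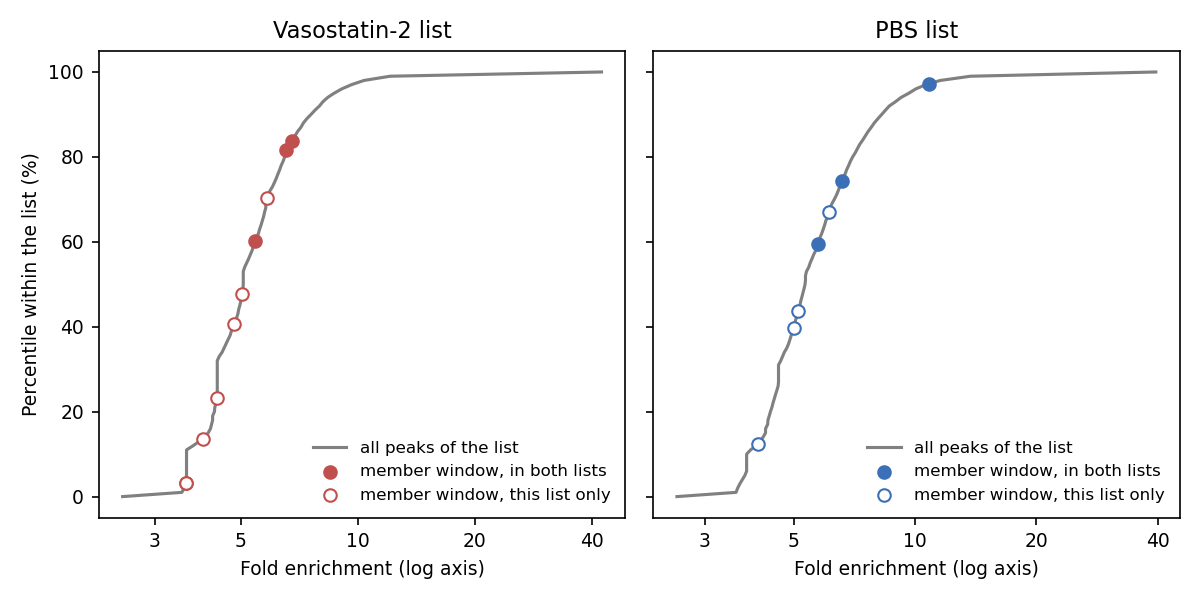
Percentile of each peak within its own list, in %, against the authors' fold enrichment on a log axis, vasostatin-2 left and PBS right; the grey line is the whole list. The peaks near the 10 genes range from 3.60-fold to 6.77-fold in the vasostatin-2 list and from 4.07-fold to 10.8-fold in the PBS list.

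By the authors' fold the peaks of these windows spread over most of their lists, with medians of 4.92-fold in the vasostatin-2 list and 5.73-fold in the PBS list. The whole lists had medians of 5.07-fold for vasostatin-2 and 5.33-fold for PBS. Of the 10 vasostatin-2 peaks 4 lay above the median of their list, and of the 7 PBS peaks 4.

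Of 47 further genes of the same pathways 23 had a vasostatin-2 peak within 50 kb and 26 a PBS peak, which is 48.9% for vasostatin-2 and 55.3% for PBS, beside the shares of all genes given above. Both lists had a peak at 17 of them, the vasostatin-2 list alone at 6 and the PBS list alone at 9. Of 13 other chemokine genes 5 had a vasostatin-2 peak and 5 a PBS peak, and of 8 receptor genes 4 had a vasostatin-2 peak and 6 a PBS peak. Of 8 adhesion genes 4 had a vasostatin-2 peak and 4 a PBS peak, and of 8 inflammasome genes 3 had a vasostatin-2 peak and 5 a PBS peak. Of 10 genes of Toll-like receptor signalling 7 had a vasostatin-2 peak and 6 a PBS peak. Chemokine genes stand in clusters, so a peak can count for several genes, and these counts are not independent. Cxcl2 counts here through the peaks already described at Cxcl1. Ccl11 in the vasostatin-2 list, and Ccl8 and Ccl12 in the PBS list, may likewise share peaks with neighbouring chemokine genes.

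Within 3 kb of an end 7 of these 47 genes had a vasostatin-2 peak and 8 a PBS peak, where 13.8% of all genes had a vasostatin-2 peak and 18.1% a PBS peak. Myd88, which encodes the adaptor of most Toll-like receptors, had a peak in both lists, with 8.40-fold enrichment and 15 fragments in the vasostatin-2 list and 8.57-fold and 21 fragments in the PBS list. Itgb2, the gene of the beta-2 integrin chain that binds ICAM1, had 8.99-fold enrichment and 18 fragments in the vasostatin-2 list and 5.31-fold and 8 fragments in the PBS list. Il6ra, the receptor gene of interleukin-6, had 6.16-fold enrichment and 10 fragments in the vasostatin-2 list and 5.73-fold and 10 fragments in the PBS list. Cxcl16, a chemokine gene, had 4.62-fold enrichment and 7 fragments in the vasostatin-2 list and 5.55-fold and 9 fragments in the PBS list. The peaks of both lists thus coincided at these 4 genes. Il6st, which encodes the signal transducer gp130, had a vasostatin-2 peak of 6 fragments and a PBS peak of 11 fragments at different ends of the gene. Ticam1, the adaptor gene of TLR3 and TLR4, had 8 fragments in the vasostatin-2 list and 9 in the PBS list, also at different sites. Within 3 kb of an end, Irak4 had a vasostatin-2 peak with 6 fragments and no PBS peak, and Nek7 with 6 and Cx3cl1 with 7 fragments had a PBS peak and no vasostatin-2 peak.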

How the data were processed

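Per the submitters' processing notes, Trimmomatic 0.39, BWA 0.7.17 and MACS2 2.2.7.1 were used with build mm10; roles, settings and any use of IgG as control are not given in the sources used here. Each deposited list comes from 1 library. Per peak, the authors deposited a fold enrichment, a -log10 p-value, a -log10 q-value and a score, which is -log10 q scaled and rounded down. Fold was read as the ratio of the summit to its local background after 1 was added to both. The files have no header, and columns were read in the caller's standard order. These values describe and rank peaks within their own list. Summit offset and coordinates are the authors', written from 1. Fragments and background per summit were solved from fold and -log10 p by a Poisson formula (within 0.0005 at 100% of peaks), and the depth factor from the background's floor and steps, assuming a 10000 bp window. Total fragments are not given in the sources used here. Genes and promoters came from RefSeq tables of GRCm38.p6. Peaks were in both lists when overlapping by at least 1 bp. Overlap was checked against bedtools 2.31.1, and overlap and fragments tested on simulated data; Python 3.11.15 and scipy 1.17.1 were used. No test of treatment was made. All 10 genes were named, with every peak in their windows. Further pathway genes were named if a peak lay within 3 kb of an end. Genes and lists were chosen with earlier results of these data known.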

Additional observations from a re-analysis of the deposited data

How the results depend on the processing

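Counts near these genes rest on few fragments and on the window. The shares of all protein-coding genes under the other rules below are not given here. Whether these counts moved more or less than those of other genes was not tested. With windows of 10 kb, 3 vasostatin-2 peaks at 3 genes and 1 PBS peak at 1 gene were left, 0 in both lists, and 1 gene had a PBS peak alone. With windows of 100 kb there were 15 vasostatin-2 peaks at 8 genes and 12 PBS peaks at 5 genes, with 4 peaks in both lists. Under that window 3 genes had a vasostatin-2 peak alone and 0 a PBS peak alone. With -log10 q of at least 5, 3 vasostatin-2 peaks at 2 genes and 2 PBS peaks at 2 genes were left, 1 in both lists. Then 1 gene (Icam1) had a vasostatin-2 peak alone and 1 (Nlrp3) a PBS peak alone. Both are peaks of both lists whose counterpart fell under the cutoff. The counterpart had -log10 q of 4.62 in the PBS list at Icam1 and 3.91 in the vasostatin-2 list at Nlrp3. With lists of equal length 2 genes had a vasostatin-2 peak alone. With at least 8 fragments (for genes chosen after seeing the data), 5 vasostatin-2 peaks at 4 genes were left, and 1 gene had one alone. With at least 8 fragments per PBS depth, also chosen after seeing the data, 3 vasostatin-2 peaks at 2 genes were left. Under that rule 0 genes had a vasostatin-2 peak alone and 1 (Nlrp3) a PBS peak alone. The vasostatin-2 peak in the Nlrp3 window, a peak of both lists, scales to 6.83 fragments. Stricter rules and narrower windows can only lower the number of peaks and of genes with a peak in a list, by construction; genes with a peak in 1 list alone can move either way. Of 54 recomputed counts 30 stayed within 1.5 times the reported one and 24 did not. The 3 peaks in both lists kept this number under reciprocal overlap of 50%, summits within 200 bp and a gap of up to 500 bp. No paired analysis was possible because each treatment has 1 NR1D1 library and no result comes from a test.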
